A study of Homo sapiens with 12 samples.

Results

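FGA, FGB, FGG, SERPINA1, SERPINA3, TTR, A1CF and A2M are genes best known from the liver, and they were followed by symbol in CAOV3 cells, a human cell line of ovarian carcinoma. They are 8 of the 19677 genes in the count tables. They were chosen by the FGB level, which was lower with bezafibrate in the presence of ascites, so their values in that comparison describe the choice and carry no test below. RNA was sequenced in 12 libraries, 3 per group, all from wild-type CAOV3 cells. Control cells received the solvent DMSO. The ascites group received 10% ovarian cancer ascites, the fluid that gathers in the abdomen, together with DMSO for 16 h. The bezafibrate group received 200 uM bezafibrate, a lipid-lowering drug that activates PPAR nuclear receptors, for 16 h. The combination group received both, also for 16 h. DMSO is named only for the groups without drug, so each drug comparison includes any difference in solvent. No time is given for the control cells, so each comparison with control may also include a difference in time. The labels do not say whether replicates were separate cultures, so p-values measure the spread between these libraries, which may be technical. Levels are given as CPM, library-size-scaled counts with TMM factors applied. The cells carried epithelial keratins at high level (KRT8 3005 CPM and KRT18 1784 CPM in control), while serous ovarian markers were low or absent (PAX8 0.378 CPM, WT1 15 and MUC16 10 counts in all, SOX17 none), 1 of 14 markers being at 0. HNF4A, a nuclear receptor of hepatocytes, was at 103.8 CPM in control. The identity of the cells was not tested beyond these markers, so their description as CAOV3 ovarian carcinoma cells rests on the labels.

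Fibrinogen is the clotting protein of blood plasma, built from alpha, beta and gamma chains that FGA, FGB and FGG encode next to one another, and thrombin turns it into fibrin. Hepatocytes make nearly all of it, and interleukin 6 acting through STAT3 raises it in the acute phase response. SERPINA1 (alpha-1-antitrypsin), SERPINA3 (alpha-1-antichymotrypsin) and A2M (alpha-2-macroglobulin) are protease inhibitors of plasma, TTR carries thyroid hormone and the retinol-binding protein, and A1CF is not secreted but is the RNA-binding cofactor of apolipoprotein B mRNA editing.

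The promoters of the fibrinogen genes are shown because FGB, by whose level the group was chosen, is among them. Each is the 250 bases before the RefSeq start (GRCh38.p14), written 5′ to 3′ on the gene's own strand. Capitals mark matches to the searched motifs, counted backwards from the start.
FGB, chr4:154562730-154562979, plus strand: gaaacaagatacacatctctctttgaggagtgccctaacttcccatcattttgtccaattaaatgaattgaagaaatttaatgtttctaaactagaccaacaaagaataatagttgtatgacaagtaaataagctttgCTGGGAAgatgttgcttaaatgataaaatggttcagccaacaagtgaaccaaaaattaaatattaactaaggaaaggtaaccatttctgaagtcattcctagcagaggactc
FGA, chr4:154590743-154590992, minus strand: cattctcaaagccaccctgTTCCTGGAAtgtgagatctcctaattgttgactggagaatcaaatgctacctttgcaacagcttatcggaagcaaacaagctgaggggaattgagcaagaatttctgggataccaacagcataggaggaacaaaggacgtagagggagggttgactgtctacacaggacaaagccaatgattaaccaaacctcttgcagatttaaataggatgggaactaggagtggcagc
FGG, chr4:154612657-154612906, minus strand: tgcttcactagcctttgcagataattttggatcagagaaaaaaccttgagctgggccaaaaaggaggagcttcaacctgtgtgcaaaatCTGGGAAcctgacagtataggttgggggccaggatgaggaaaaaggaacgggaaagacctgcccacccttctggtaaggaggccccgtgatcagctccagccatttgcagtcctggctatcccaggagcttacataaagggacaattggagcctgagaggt

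Letters of 4 motifs were searched on both strands: CTGGGAA (an IL-6 response element), TTCNNNGAA (STAT, which reads the same on both strands), TTGCNNCAA (C/EBP) and AGGTCA (a nuclear receptor half-site). A further planned motif, GTTAAT (an HNF1 half-site), was not searched, so any match to it is left unmarked. The FGB window held CTGGGAA from -112 to -106. The FGA window held TTCNNNGAA from -231 to -223. The FGG window held CTGGGAA from -161 to -155 and none of the other motifs. Of 15182 promoters of the same length, 9.49% held CTGGGAA, 6.08% TTCNNNGAA, 1.38% TTGCNNCAA and 10.1% AGGTCA. Of the 6 genes of the group with a promoter in the table, SERPINA3 held AGGTCA from -195 to -190, and SERPINA1 and A1CF held no match. None of these matches overlapped another. A match describes the letters only.

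FGB, the beta chain (ENSG00000171564.12, GRCh38 chr4:154562956-154571086, plus strand), fell with bezafibrate. The control libraries held 3.75, 3.38 and 3.73 CPM and the bezafibrate libraries 2.35, 1.72 and 2.06. All 3 bezafibrate libraries lay below all 3 control libraries. The mean was 3.62 ± 0.208 CPM (SD, n = 3) in control and 2.05 ± 0.315 (SD, n = 3) with the drug, a log2 fold change of -0.83 (SE 0.20) with an adjusted p of 0.00229 by edgeR's quasi-likelihood test. This comparison shares no library with the one that picked the genes. The counts behind it were 30 to 55 per library. In bulk RNA, fewer cells of a type and less RNA per cell cannot be told apart.

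FGA, the alpha chain (ENSG00000171560.17, GRCh38 chr4:154583126-154590766, minus strand), fell too, at a lower level and with a wider error. The control libraries held 1.295, 0.955 and 0.952 CPM and the bezafibrate libraries 0.663, 0.269 and 0.481, without overlap. The log2 fold change was -1.20 (SE 0.39) with an adjusted p of 0.0277 by edgeR's quasi-likelihood test. This call rested on 5 to 19 counts per library and was lost with DESeq2 (adjusted p 0.139). Without control replicate 1 the adjusted p was 0.148, without bezafibrate replicate 2 it was 0.188 and without bezafibrate replicate 3 it was 0.0601. FGA also passed the filter on low counts only through the 2 groups without drug: 3 of 3 control and 3 of 3 ascites libraries reached the minimum of 0.701 CPM, against 0 of 3 in each drug group. In a fit with no filter its adjusted p was 0.0375 (edgeR).

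FGG, the gamma chain (ENSG00000171557.17, GRCh38 chr4:154604134-154612967, minus strand), was nearly undetected, with 3 counts over all 12 libraries. No control library held a count, which allows a control level of up to 0.0734 CPM (3 counts over the group, counting error only). Any drug difference in FGG was not detectable at this depth. The share of FGA in the counts of FGA and FGB together, whose transcripts differ in length, was 22.9% in control (44 of 192 counts, exact Clopper-Pearson 95% interval 17.2 to 29.5). It was 18.5% (12.1 to 26.5) with bezafibrate, 20% (15.2 to 25.6) with ascites and 21.7% (13.8 to 31.6) with both. These intervals, which cover counting error only, overlapped in every pair of groups.

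**Figure D1:**
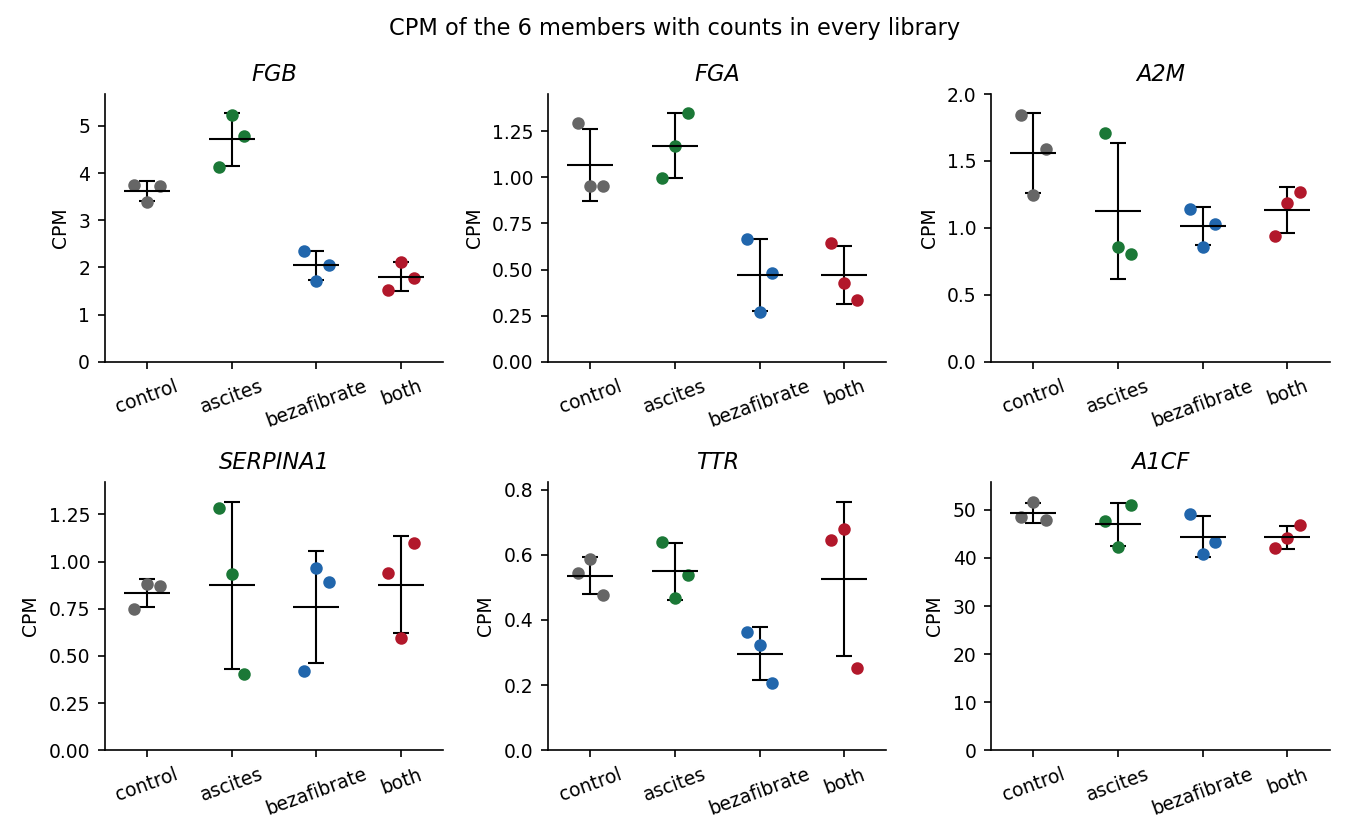
CPM by group for the 6 genes with counts in every library; points are libraries, horizontal lines group means and bars 1 SD (n = 3), and "both" is ascites with bezafibrate. FGB and FGA in the 6 libraries with drug lie below all 6 libraries without it, whereas the SERPINA1 groups overlap and A1CF stays between 40.8 and 51.7 CPM.

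With ascites present, FGB was 4.13, 5.23 and 4.78 CPM without the drug and 1.53, 2.12 and 1.77 CPM in the combination group. Those groups did not overlap, and the log2 difference was -1.40 (SE 0.21), the value for which the genes were picked. FGA was 0.997, 1.17 and 1.35 CPM with ascites alone and 0.645, 0.425 and 0.338 CPM with both. Its log2 difference of -1.25 (SE 0.40) is likewise a description. The drug difference with ascites minus that without was -0.57 on the log2 scale (SE 0.29) for FGB and -0.05 (SE 0.59) for FGA. Neither is a test, because the same libraries picked the genes.

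Ascites alone placed FGB slightly higher. Its 3 ascites libraries, at 4.13 to 5.23 CPM, lay above the 3 control libraries, at 3.38 to 3.75 CPM, as for 5.64% of all genes tested, and the log2 difference was 0.38 (SE 0.18). The ascites libraries helped to pick FGB, so no test is given. For FGA the ascites and control libraries overlapped, with a log2 fold change of 0.13 (95% interval -0.56 to 0.81) and an adjusted p of 0.987 by edgeR's quasi-likelihood test. Under the drug, adding ascites left FGB at 1.53 to 2.12 CPM against 1.72 to 2.35 CPM, a log2 difference of -0.19 (SE 0.23).

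The inhibitors and the carrier were all sparse. A2M (ENSG00000175899.15, GRCh38 chr12:9067664-9116229, minus strand) held 1.84, 1.25 and 1.59 CPM in control and 1.15, 0.861 and 1.03 CPM with bezafibrate. These groups did not overlap, but the log2 fold change of -0.63 (SE 0.31, 95% interval -1.26 to 0.0030) did not pass the test (adjusted p 0.183, edgeR). In ascites its libraries spread from 0.808 to 1.71 CPM and those of the combination group from 0.939 to 1.27 CPM, a log2 difference of -0.02 (SE 0.34). Ascites replicate 1 decides that value, which was 0.42 without it.

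SERPINA1 (ENSG00000197249.14, GRCh38 chr14:94376747-94390693, minus strand) overlapped between all groups. It held 0.750, 0.882 and 0.873 CPM in control and 0.422, 0.969 and 0.893 CPM with bezafibrate, a log2 fold change of -0.12 (95% interval -0.94 to 0.69; adjusted p 0.893, edgeR). That interval spans the fall of FGB, so these counts, 6 to 18 per library, could not show whether SERPINA1 differed from FGB. SERPINA3 (ENSG00000196136.18, GRCh38 chr14:94612377-94624055, plus strand) gave 1 count in control replicate 1 and 0 in the other 11 libraries. TTR (ENSG00000118271.12, GRCh38 chr18:31557010-31599021, plus strand) held 3 to 11 counts per library and did not pass the filter. Its levels were 0.545, 0.588 and 0.476 CPM in control and 0.362, 0.323 and 0.206 CPM with bezafibrate, which do not overlap. In a fit with no filter its log2 fold change was -0.82 (SE 0.59), with an adjusted p of 0.468 by edgeR over 16403 genes. With ascites it was 0.468 to 0.641 CPM and with both 0.253 to 0.679 CPM, which overlap.

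A1CF (ENSG00000148584.15, GRCh38 chr10:50799409-50885675, minus strand) was the most abundant of the 8, and its groups overlapped in the drug comparison without ascites. The control libraries held 48.5, 51.7 and 47.8 CPM and the bezafibrate libraries 49.1, 40.8 and 43.2, which overlap. Its log2 fold change was -0.15 (SE 0.07, 95% interval -0.29 to -0.02), with an unadjusted p of 0.0275 and an adjusted p of 0.119 by edgeR. With 520 to 815 counts per library, the interval does not reach the fall of FGB. The call depended on the samples fitted: the adjusted p was 0.0161 without bezafibrate replicate 1, at a log2 fold change of -0.23, and 0.0472 with only the 2 groups in the fit. A1CF shares 378 of its 9603 exon bases with ASAH2B on the other strand, so a small part of its counts is uncertain where counting did not use strand.

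**Figure D2:**
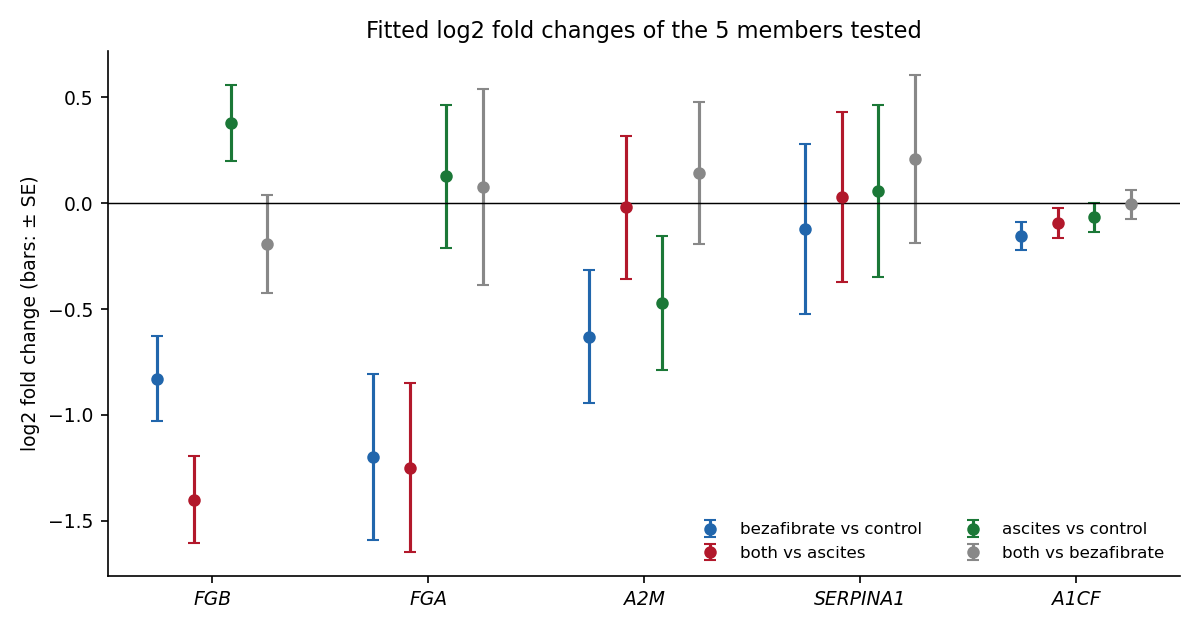
Fitted log2 fold changes of the 5 genes that passed the filter, in each of 4 comparisons; bars are 1 SE of the fit. The drug values without and with ascites are -0.83 and -1.40 for FGB, -1.20 and -1.25 for FGA, and -0.15 and -0.09 for A1CF. Those with ascites come from the comparison that picked the genes and are a description only.

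In bezafibrate against control, FGB and FGA passed the threshold (adjusted p under 0.05), both lower, and A2M, SERPINA1 and A1CF did not. FGA was tested only through the groups where it was high, so no count is read from these genes. Over all 12470 genes tested, 17.6% passed, 7.55% lower and 10.1% higher. The bezafibrate libraries of FGB, FGA and A2M all lay below control, as for 16.3% of all genes. Between combination and ascites, 17.8% of all genes passed and 14.5% lay lower without overlap, from which nothing is read for these 8. In ascites against control, 0 of the 4 genes tested passed (FGA, A2M, SERPINA1 and A1CF), and 0 had an unadjusted p under 0.05 by edgeR, against 6.01% of all genes. DESeq2 and limma voom also called 0, where 0.0882% of all genes passed by edgeR. In combination against bezafibrate the same 4 genes gave 0 calls and 0 at an unadjusted p under 0.05, against 0.128% and 4.79% of all genes. The intervals there were wide for FGA (-0.86 to 1.02) and narrow for A1CF (-0.14 to 0.13).

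Per kilobase of exon in control, levels ran from A1CF (5.14 CPM per kb) through FGB (1.34), FGA (0.270), A2M (0.244), TTR (0.224) and SERPINA1 (0.170) to SERPINA3 (0.00454) and FGG (0). A1CF stood above 65.2% of the 19571 genes with a length and FGB above 48.5%. FGA, A2M and TTR, neighbours in this order, differed by less than the SD of their control libraries. Per length, CAOV3 cells held the beta chain of fibrinogen above the alpha chain, and the gamma chain did not pass the floor of 3 counts in any of the 4 groups.

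At the fibrinogen locus 1 other gene was measured well enough to test, and it did not pass. PLRG1, a splicing factor whose start lies 12.5 kb from that of FGB, held 83.1 CPM in control and 89.4 CPM with bezafibrate. The log2 fold change was 0.11 (SE 0.04, 95% interval 0.0166 to 0.195), with an unadjusted p of 0.0214 and an adjusted p of 0.0988 by edgeR. With ascites present it went from 85.1 to 90.8 CPM (log2 fold change 0.09, adjusted p 0.168, edgeR). In both comparisons the libraries with drug lay above those without it. FGA starts 27.8 kb from FGB, and FGG lies beyond it. The other genes within 500 kb, DCHS2, LRAT and RBM46, had 23, 1 and 0 counts in all.

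By Pearson correlation of log2 CPM over the 12 libraries, genes most like FGB included SH3RF2 (r 0.967), PDGFRA (0.951), IL18 (0.950) and ADGRG6 (0.947). The 12 points share 4 treatment groups, so r is given as a description. PDGFRA, a growth factor receptor, went from 43.2 CPM in control to 21.6 with bezafibrate, and from 43.7 with ascites to 22.3 with both. IL18, an inflammatory cytokine, went from 18.5 to 12.8 CPM, and from 22.3 with ascites to 12.7 with both. FGB and these 4 genes had their highest mean in the ascites group. FGA had r 0.883 with FGB but lies under the mean of 1 CPM set for this order, and A1CF (r 0.497) and A2M (r 0.211) stood at places 2452 and 4591 of 11925.

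Related gene lists held genes that rose and genes that fell. Among other plasma proteins made mainly by the liver, 10 of 47 were measured well enough to test, and with bezafibrate 2 rose and 2 fell (10.1% and 7.55% of all genes tested did). RBP4, the retinol carrier that binds TTR, rose from 21.8 to 31.9 CPM (log2 fold change 0.55, adjusted p 9.92e-08, edgeR). SERPINF1, a secreted serpin, rose from 98.3 to 124.6 CPM. C5, a complement component, fell from 4.33 to 2.46 CPM (log2 fold change -0.83, adjusted p 0.00135, edgeR). AFP, the fetal albumin-like protein, fell from 6.01 to 4.47 CPM with an adjusted p of 0.0482 by edgeR. Its adjusted p ranged from 0.0298 to 0.25 over 14 other settings, and the call was lost in 6: DESeq2, limma voom, and without control replicate 1 or 3 or bezafibrate replicate 2 or 3. The median log2 fold change of the tested genes was 0.04, against -0.004 over all genes.

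Genes of clotting and clot removal moved in both directions, with 6 of 22 tested higher and 2 lower. All genes tested gave 10.1% higher and 7.55% lower. The list holds 34 genes and its median was -0.07. SERPIND1, the thrombin inhibitor heparin cofactor II, held 1.85 CPM in control and rose to 7.30 (log2 difference 1.96, SE 0.19, adjusted p 1.07e-10, edgeR). PLAUR, the urokinase receptor, rose from 26.9 to 38.3 CPM. SERPINE2, which inhibits thrombin and urokinase, rose by 0.36 on the log2 scale. F3, the tissue factor that starts clotting, fell from 17.1 to 9.90 CPM (log2 fold change -0.80, adjusted p 3.83e-08, edgeR), and TFPI, the inhibitor of that pathway, fell from 236.7 to 202.8 CPM.

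**Figure D3:**
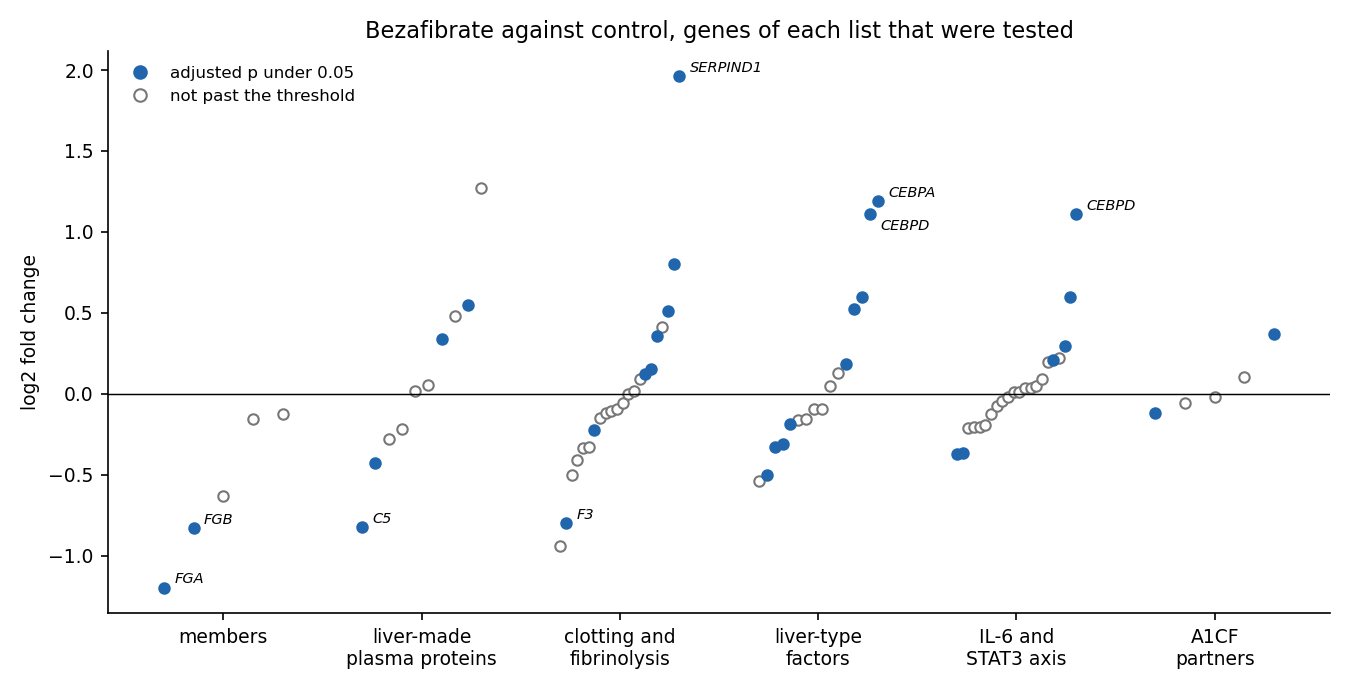
Log2 fold change of every tested gene of the 8 ("members") and of 5 related lists in bezafibrate against control; filled points passed an adjusted p under 0.05. Genes past the threshold lie on both sides of 0 in each related list, from C5 at -0.83 to SERPIND1 at 1.96.

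Of the transcription factors that act on liver genes, 5 of 16 tested rose and 4 fell, against 10.1% and 7.55% of all genes. The list holds 20 genes and its median was -0.09. CEBPA rose from 23.6 to 54.0 CPM (log2 fold change 1.19, adjusted p 9.97e-18, edgeR), CEBPB from 42.0 to 63.7 CPM and CEBPD from 3.11 to 6.73 CPM, all members of the C/EBP family. PROX1, a homeobox factor of liver and lymphatic cells, rose by 0.52 on the log2 scale. FOXA1, a pioneer factor of liver and other epithelia, fell from 96.6 to 77.8 CPM. HNF4A fell from 103.8 to 91.2 CPM (log2 difference -0.19, SE 0.04, adjusted p 0.000837, edgeR).

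On the interleukin 6 and STAT3 axis, 4 of 22 tested genes rose and 2 fell, against 10.1% and 7.55% of all genes. The list holds 29 genes and its median was 0.01. CEBPB and CEBPD, also counted above, were among those that rose. NR3C1, the glucocorticoid receptor, fell from 76.3 to 59.3 CPM. JUNB, an early response factor, rose by 0.30 and NFKBIA, the inhibitor of NF-kB, by 0.21 on the log2 scale, whereas IL6R, the interleukin 6 receptor, fell from 13.8 to 10.7 CPM (adjusted p 0.0108, edgeR). Over 14 other settings the adjusted p of NFKBIA ranged from 0.00433 to 0.0557, and its call was lost without control replicate 3 or bezafibrate replicate 3. That of IL6R ranged from 0.00395 to 0.0975, and its call was lost with DESeq2 and without control replicate 1 or 2 or bezafibrate replicate 2. IL6 and OSM, ligands of the axis, had 0 counts in every library. Among partners of A1CF in RNA editing, RBM47, which also serves apolipoprotein B editing, rose from 151.4 to 195.5 CPM (adjusted p 1.83e-10, edgeR), KHSRP fell by 0.12 on the log2 scale, and the other 3 of 5 tested did not pass. The partner list holds 7 genes and its median was -0.02, and 17.6% of all genes tested passed.

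Across these 5 lists, counting each gene once, 27 of 73 tested genes passed in bezafibrate against control (37%, 16 higher and 11 lower) and 31 in combination against ascites (42.5%, 19 higher and 12 lower). Of these, 25 passed in both and all 25 had the same direction, 92.6% of the first set and 80.6% of the second. That overlap was not counted over all genes, so it is not read as a trait of these lists. Over all genes tested, 17.6% passed in the first comparison and 17.8% in the second. C5 fell by 1.09, F3 by 0.89 and FOXA1 by 0.42 on the log2 scale with ascites present, and SERPIND1 rose by 1.83 and CEBPA by 1.10. HNF4A did not pass there (log2 fold change -0.11, adjusted p 0.0745, edgeR), and whether its drug response differed with ascites is not shown by that. Ascites alone gave 0 calls among the 73 by edgeR, DESeq2 and limma voom, where 0.0882% of all genes passed by edgeR. There were 8 at an unadjusted p under 0.05 by edgeR, against 6.01% of all genes. Under the drug, ascites gave 0 calls among the 73 by edgeR, with 9 at an unadjusted p under 0.05. The shares over all genes were 0.128% and 4.79%.

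**Figure D4:**
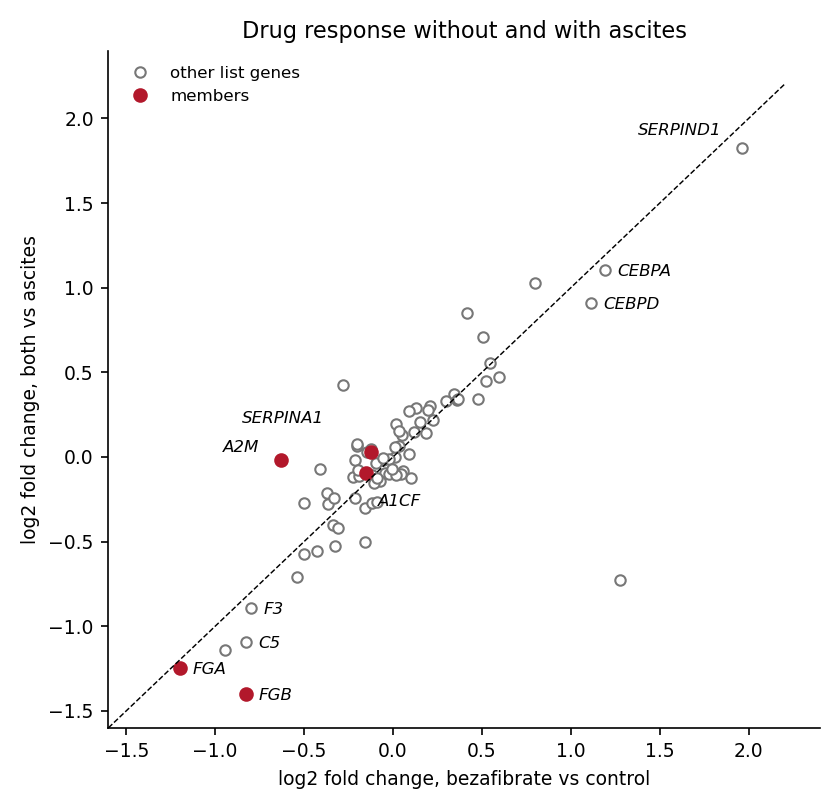
Log2 fold change with bezafibrate without ascites (horizontal) and with ascites (vertical, the comparison that picked the genes) for the 5 of the 8 genes that were tested (filled) and the other genes of the 5 lists (open); the dashed line marks equal values. FGB lies below the line at -0.83 and -1.40, FGA close to it at -1.20 and -1.25, and A2M above it at -0.63 and -0.02.

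Library totals ranged from 11831093 to 18762759 counts. Sums of some other cell types' markers differed with the drug beside the falls of FGB and FGA, but a sum can follow few genes. The summed hepatocyte markers, 2 of 13 at 0 (HP and G6PC1), were 9.18 to 12.9 CPM in control, 8.69 to 9.68 with ascites, 14.3 to 17.1 with bezafibrate and 14.3 to 16.4 with both. Fibroblast markers, none of 7 at 0, summed to 231.8 to 244.1, 229.2 to 236.2, 187 to 199.5 and 184.1 to 199.2 CPM in the same order, although DCN and COL1A2 had 3 and 2 counts in all. Blood markers, 6 of 13 at 0 with PTPRC and CD3E among them, summed to 77.7 to 80.9, 77.5 to 87.0, 95.2 to 99 and 96.6 to 104.6 CPM. Platelet markers, 3 of 6 at 0 (PPBP, PF4 and GP9), stayed within 3.07 to 4.68 CPM. In bezafibrate against control, 1 of 4 tested hepatocyte markers passed higher and 1 lower (median log2 fold change -0.23). Of 6 tested blood markers, 1 passed higher and 0 lower (median -0.003). All 4 tested fibroblast markers passed lower (median -0.70). Over all genes tested, 10.1% passed higher and 7.55% lower. The part of other cell types in the results was not tested.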

How the data were processed

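Messenger RNA of the 12 libraries was measured by RNA-seq. The authors deposited whole-number counts per gene, per the file contents. The submitters' processing notes name GRCh38, Trimmomatic 0.39, STAR 2.7.9a, RSEM 1.3.3 and DESeq2 1.28.1. Which tool made the counts, the annotation, any rounding and the use of strand are not given in the sources used here. Counts were fitted with edgeR 4.0.16 (R 4.3.3; robust quasi-likelihood F test, TMM scaling, 1 mean per group, 8 residual degrees of freedom) after a filter (minimum count 10, total 15) that kept 12470 genes and removed 7207, with Benjamini-Hochberg adjustment over those kept. Alternatives used DESeq2 1.42.0, limma 3.58.1 (voom), other scalings, no filter, the replicate number as a block, and each library left out. CPM are on TMM library sizes. Coordinates and exon lengths come from GENCODE 29 (19571 of 19677 genes matched), and promoters from RefSeq.

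The members and lists were chosen with earlier results of these data known. All 8 members are named. From each list the named genes are those past the threshold in bezafibrate against control with a mean of at least 1 CPM in either group, at most 6 per list by adjusted p; some genes that this rule or the order of likeness to FGB names are not reported here. IL6, OSM, PLRG1 and the markers were named outside that rule, after their values were seen.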

Additional observations from a re-analysis of the deposited data

Results flagged for a closer look

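PLAUR, the urokinase receptor, drew attention because its ascites libraries lay below control without bezafibrate and above with it, with no overlap either way. Without the drug the ascites libraries held 25.7 to 25.8 CPM, below the control libraries at 26.3 to 27.55. With the drug the combination libraries held 41.2 to 43.05 CPM, above the bezafibrate libraries at 37.3 to 39.3. The difference between the log2 fold changes was 0.20 (SE 0.08), with an unadjusted p of 0.0218 and an adjusted p of 0.999 by edgeR, so it did not pass.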

How the results depend on the processing

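With bezafibrate against control, 2 of the 5 genes tested (FGB and FGA) passed, against 17.6% of all genes tested. FGA was tested only through the groups where it was high, so the count only follows the settings. That count was 1 with a threshold of 0.01, 1 with DESeq2, and 1 to 3 when each library was left out. The calls over all genes were 2199 in the main fit and 1504, 1669 and 1761 to 1888 in those settings. FGA was the gene lost, and A1CF was the gene gained without bezafibrate replicate 1 and with only the 2 groups in the fit (3 genes each). FGB passed in 15 of 15 settings, with log2 fold changes from -0.95 to -0.71. FGA passed in 10 of 15 (-1.54 to -0.88), A1CF in 2 of 15, and A2M and SERPINA1 in none. The FGB difference between combination and ascites ran from -1.52 to -1.27 over the settings. The list genes called with ascites against control were 0, but 2 with no filter (C4A and C4B), 1 with only the 2 groups in the fit (C4B) and 1 with combination replicate 3 left out, a setting added after seeing the data (C4B). C4A and C4B are near-identical copies whose counts can be split between them. With the replicate block, FGB, FGA and 27 list genes passed with bezafibrate against control, where 2145 of all genes did. Same-numbered libraries did not deviate together (r from -0.125 to 0.037). With 3 libraries per group this check cannot exclude that the numbers pair the samples. For named list genes, 612 of 638 results under other settings kept their direction and side of the threshold, 24 lost the call, 2 gained it and 0 reversed. Depth limits FGA, SERPINA1, TTR and A2M, at 3 to 27 counts per library, and leaves FGG and SERPINA3 without a comparison.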

Other observations

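Around SERPINA1 and SERPINA3 on chromosome 14, the other serpin genes ranged from low to no counts. SERPINA6, the corticosteroid-binding globulin, had 99 counts over the 12 libraries, and of the rest SERPINA10 had 7 and SERPINA5 had 3, while SERPINA4, SERPINA9, SERPINA11 and SERPINA12 had 0. SERPINA6 was at 0.942 ± 0.254 CPM (SD, n = 3) in control, 0.527 ± 0.0987 with ascites, 0.464 ± 0.122 with bezafibrate and 0.408 ± 0.109 with both. DDX24, an RNA helicase whose start lies 309.4 kb from that of SERPINA1, went from 187 CPM in control to 173 with bezafibrate. Its log2 fold change was -0.11 (adjusted p 0.0261, edgeR). The other neighbours tested, OTUB2, IFI27L1, IFI27L2, PPP4R4 and DICER1, did not pass (adjusted p 0.214 to 0.932, edgeR). Of all genes tested, 17.6% passed.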
